A study of Sus scrofa with 8 samples.

Results

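The genes described here encode proteins of the mitochondrial ribosome and of the machinery that brings proteins into mitochondria. They were taken by name: every probe set whose platform annotation gave 1 gene symbol beginning MRPL, MRPS, TIMM or TOMM, and for each gene the probe set with the highest mean over all 8 arrays. That gave 76 genes, measured by 99 probe sets, among the 6765 genes and 23999 probe sets tested: 36 MRPL, 22 MRPS, 11 TIMM and 7 TOMM genes. Members with 1 probe set numbered 59, and 17 had several. TOMM40, TIMM23 and TIMM17A, which code for channel subunits, are not analysed here. Of the 76 symbols, 75 were found under the same gene ID in the RefSeq gene table for Sscrofa11.1, and all 75 kept their symbol there.

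Mitochondria keep a small genome that codes for core subunits of the respiratory chain, and they translate it on a ribosome of their own. Its RNAs come from that genome, but all of its proteins are coded in the nucleus and made in the cytosol. They enter through the outer membrane translocase (TOM) and are then passed to the inner membrane translocase TIM23, which handles proteins with a presequence. Another inner membrane translocase, TIM22, inserts carrier proteins. Heart muscle is very rich in mitochondria, and inherited defects of MRPL3, MRPL44 and MRPS22 are known causes of cardiomyopathy in infants.

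Glial growth factor 2 (GGF2), an isoform of neuregulin-1, was infused after myocardial infarction. The samples were left ventricular muscle remote from the infarct, 1 Affymetrix porcine array for each of 8 castrated male Yorkshire pigs under 1 year of age, all of them infarcted. The groups were 3 animals labelled untreated, 3 on the low dose of GGF2, 0.67 mg/kg at each infusion, and 2 on the high dose, 2.0 mg/kg, both for 4 weeks. The labels do not say whether the untreated animals received vehicle infusions.

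Values are deposited log2 values from RMA, so a difference of 1 is a doubling. All 76 members lay above 3.78, the lower quartile of all probe sets, which was taken as close to background. Their means over 8 arrays ran from 4.47 for MRPS23 to 11.90 for TOMM7, with a median of 9.03. Probe sets differ in how strongly they bind, so these means show how far above background a gene was read and do not rank the transcripts. The 10 measured of 12 cardiomyocyte markers had means from 10.39 to 14.87, so heart muscle RNA was present as labelled. In bulk tissue, fewer cells of a type and less RNA per cell cannot be told apart.

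By the median range the members varied about as much as all genes, but fewer of them ranged widely. The range of a member over the 8 animals had a median of 0.53 log2 units, against 0.56 for all genes. It was under 0.5 in 31 of 76 members, and in 2819 of all 6765 genes. MRPL18 had the narrowest range, 0.20, from 6.55 to 6.74, but its second probe set, with a mean of 6.40, ranged over 0.99. Ranges above 1 were found in 4 members, 5.26% against 15.2% of all genes: MRPS5 (1.45), the outer membrane receptor TOMM70 (1.34), MRPS36 (1.32) and MRPL46 (1.07). Despite its name, MRPS36 is now known as a subunit of the 2-oxoglutarate dehydrogenase complex and not of the ribosome.

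The mean of the members differed from animal to animal, and how far single members varied together was not measured. After each gene was centred on its own mean, the mean of the 76 members was 0.079, -0.088 and 0.016 in untreated replicates 1 to 3. It was -0.224, -0.050 and 0.067 in low-dose replicates 1 to 3, and 0.143 and 0.057 in high-dose replicates 1 and 2. The high-dose animals thus overlapped the untreated ones, the lower high-dose value lying below that of untreated replicate 1. The same means over all genes stayed between -0.025 and 0.015.

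**Figure D1:**
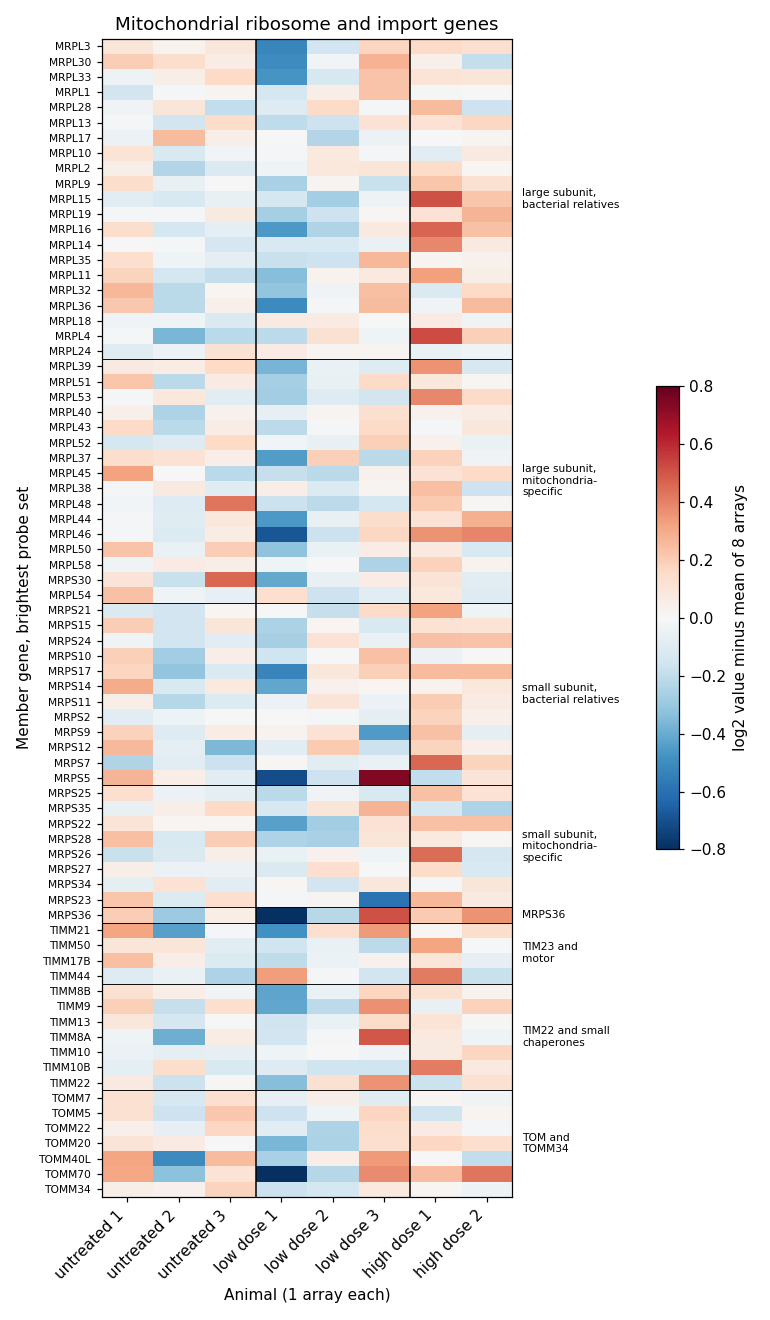
Heat map of the 76 members (rows, brightest probe set, ordered by role and then by level) in the 8 animals (columns). Colour is the log2 value minus the gene's mean over 8 arrays, and values beyond 0.8 in size take the end colours. The column of low-dose replicate 1 is blue for most rows and holds the lowest value of 36 members, and that of high-dose replicate 1 is red for most rows and holds the highest value of 28.

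Low-dose replicate 1 had the lowest value of all 8 arrays in 36 of 76 members, whereas 19.8% of all genes had their lowest value there. High-dose replicate 1 had the highest value in 28 of 76, against 18.2% of all genes. Animals of 1 group differed as well. Low-dose replicate 1 was below both other low-dose animals in 52 of 76 members (68.4%, against 37.9% of all genes), and untreated replicate 2 was below both other untreated animals in 43 (56.6% against 39.3%). High-dose replicate 1 was above high-dose replicate 2 in 51 (67.1% against 52.0%). The pigs' tag numbers hold 3 neighbouring pairs: untreated replicates 1 and 3, the high-dose animals, and, across groups, untreated replicate 2 and low-dose replicate 1. The last pair had the lowest means of the members. Both high-dose animals form 1 such pair, so the high dose and whatever neighbouring tags share cannot be told apart. Actin and GAPDH control probes at the 3' end read higher than those at the 5' end, more so where RNA is less intact. That excess was largest in low-dose replicate 1, at 3.22 on the log2 scale against 2.52 to 2.99 in the other 7. It was 2.68 in untreated replicate 2 and 2.59 to 2.71 at the high dose; the part of RNA integrity in the members' values was not tested.

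**Figure D2:**
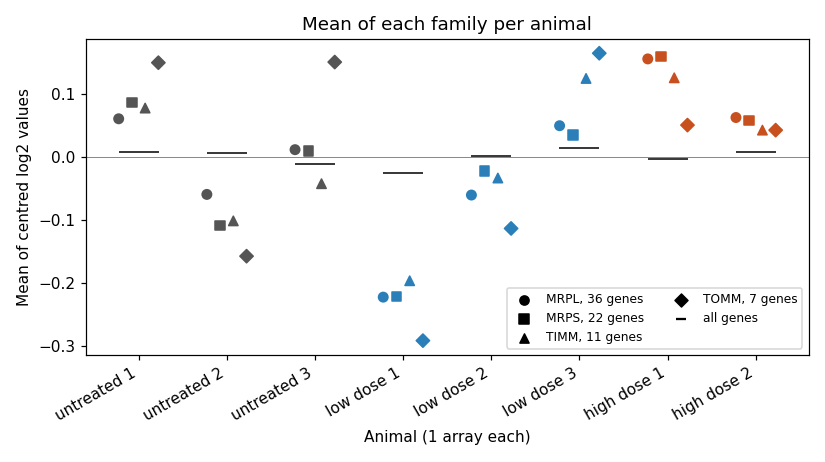
Mean of the centred log2 values of the MRPL, MRPS, TIMM and TOMM genes in each animal (symbols), with the mean over all genes as a bar; grey is untreated, blue low dose and orange high dose. All 4 families are lowest in low-dose replicate 1, between -0.291 and -0.196. The TOMM genes stand higher than the others in untreated replicates 1 and 3.

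At the high dose the mitochondrial ribosome and import genes were on balance slightly higher than in untreated animals. Of 76 members, 57 were higher and 19 lower, and the median log2 change was 0.08, a difference of a few percent. Over all genes 53.8% were higher, with a median of 0.02. No member passed the test: after limma's adjustment 0 of 76 lay under 0.05, MRPS7 coming nearest with an adjusted p of 0.384, and 0.00% of the 23999 probe sets passed. An unadjusted limma p under 0.05 was found in 4 members, all higher (5.26%), close to the 4.61% of all genes that were higher at that threshold; 4.95% of all genes were lower at it. The log2 change was over 0.5 in size in 1 member, 1.32%, against 7.92% of all genes.

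The values of the groups did not overlap in 22 members. In 19 of them, 25.0%, both high-dose animals lay above all 3 untreated ones, against 16.0% of all genes. In 3 of them, 3.95%, both lay below, against 13.0%. These counts rested partly on single animals. Without untreated replicate 2, 46 members were higher (52.9% of all genes) with a median of 0.03. Without that animal, 21 were above without overlap (24.9%) and 9 below (23.6%). Without untreated replicate 1, 30 were above without overlap (22.9%) and 4 below (16.6%). Without high-dose replicate 1, no member had an unadjusted p under 0.05 (2.16% of all genes higher), 48 were higher, 24 were above without overlap (26.8%) and 9 below (24.0%). Without high-dose replicate 2, the unadjusted p was under 0.05 in 8 members (4.54%), 38 were above without overlap (32.6%) and 5 below (25.6%). Of all genes, 51.4% were higher without high-dose replicate 1. With a covariate for the pair of neighbouring tags that spans untreated and low dose, 41 members were higher, with a median of 0.02.

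Among the large-subunit proteins with bacterial relatives, 17 of 21 were higher at the high dose, with a median of 0.09. MRPL4, whose relatives line the tunnel through which the new protein leaves, read 6.37, 6.01 and 6.16 in untreated animals, 6.17, 6.50 and 6.34 at the low dose and 6.90 and 6.57 at the high dose. Both high-dose animals lay above all others. The difference from untreated, 0.56 ± 0.16 (SE) or 1.47-fold, was the largest among the members (limma adjusted p = 0.420). MRPL15 read 9.15, 9.12 and 9.18 in untreated animals, 9.10, 8.97 and 9.20 at the low dose and 9.75 and 9.46 at the high dose. Its untreated and low-dose values were nearly the same and both high-dose values were higher, a change of 0.45 ± 0.13 (limma adjusted p = 0.406). MRPL14, whose relatives sit where the subunits meet, was at 0.28 ± 0.13 (limma adjusted p = 0.632), with values of 8.38 to 8.51 in untreated animals and 8.90 and 8.59 at the high dose. Without high-dose replicate 1 it was at 0.12, and without replicate 2 at 0.44.

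MRPL30 went the other way, with 10.88, 10.82 and 10.74 in untreated animals and 10.72 and 10.49 at the high dose, a change of -0.21 ± 0.21 (limma adjusted p = 0.872). Without high-dose replicate 1 it was at -0.32, and without replicate 2 at -0.093. MRPL3, a cardiomyopathy gene, read 11.01, 10.94 and 11.00 in untreated animals, 10.39, 10.76 and 11.08 at the low dose and 11.06 and 11.04 at the high dose. Its high-dose values lay just above the untreated ones, at 0.06 ± 0.18.

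The large-subunit proteins classed here as mitochondria-specific were closer to no difference, with 12 of 16 higher and a median of 0.03. MRPL46 had the largest change among them, 0.40 ± 0.22 (limma adjusted p = 0.712), and read 8.33, 8.23 and 8.40 in untreated animals and 8.70 and 8.73 at the high dose. MRPL53 read 9.62, 9.72 and 9.55 in untreated animals and 10.02 and 9.79 at the high dose, 0.27 ± 0.12 (limma adjusted p = 0.632), or 0.16 without high-dose replicate 1. Both were higher without overlap. MRPL44, another cardiomyopathy gene, was at 0.21 ± 0.18, with 8.45 to 8.63 in untreated animals and 8.66 and 8.83 at the high dose. MRPL45, which ties the ribosome to the inner membrane, was at 0.10 ± 0.17, and MRPL58, which frees stalled ribosomes, at 0.08 ± 0.12. MRPL50 (-0.15 ± 0.16) and MRPS30 (-0.12 ± 0.21), which despite its symbol belongs to the large subunit, were lower with overlap; without 1 animal at a time MRPL50 ranged from -0.25 to -0.052.

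In the small subunit 9 of 12 proteins with bacterial relatives were higher, with a median of 0.16, and 6 of 8 mitochondria-specific ones, with a median of 0.07. MRPS7 had the smallest p of all members. It read 7.12, 7.28 and 7.19 in untreated animals, 7.37, 7.27 and 7.31 at the low dose and 7.82 and 7.54 at the high dose. The high-dose values stood apart from the other 6, and the change was 0.48 ± 0.12, 1.40-fold (limma adjusted p = 0.384). MRPS24 read 10.35, 10.23 and 10.30 in untreated animals and 10.62 and 10.61 at the high dose, 0.32 ± 0.13 (limma adjusted p = 0.595). MRPS17 was at 0.34 ± 0.23, with an untreated spread from 8.92 to 9.41 and 9.49 in both high-dose animals.

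MRPS35, a mitochondria-specific protein, had the most negative change of all members, -0.25 ± 0.14 (limma adjusted p = 0.727). It read 9.33, 9.44 and 9.55 in untreated animals, 9.26, 9.49 and 9.66 at the low dose and 9.25 and 9.14 at the high dose, so both high-dose animals lay below the rest. MRPS22 read 9.35, 9.26 and 9.26 in untreated animals and 9.48 in both high-dose ones, 0.19 ± 0.16.

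**Figure D3:**
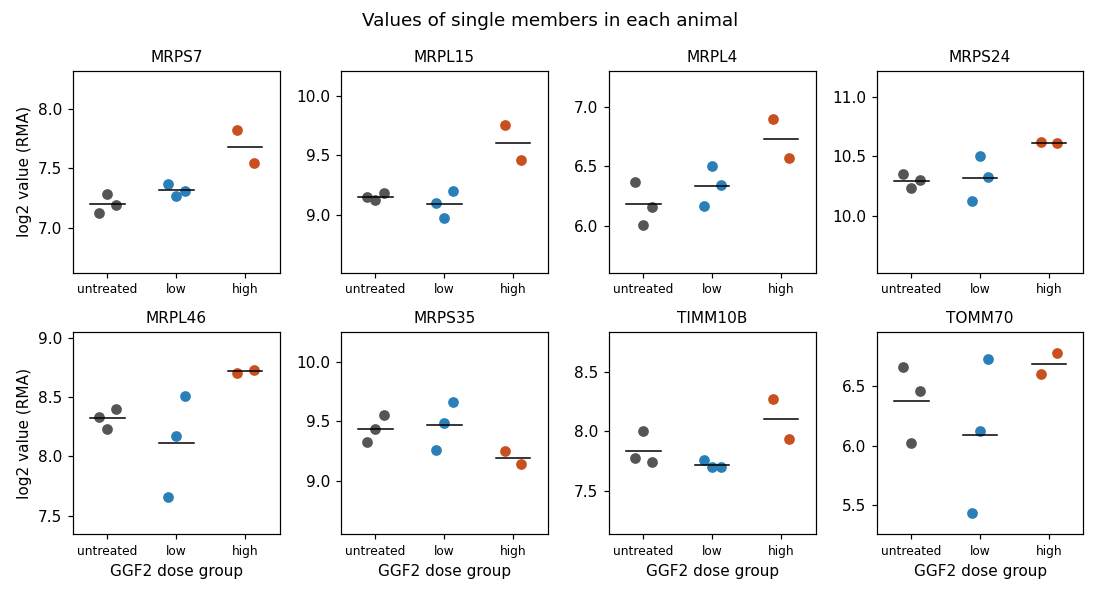
log2 values of 8 members in each animal (points) with the group mean (line), each panel spanning the same 1.7 log2 units. MRPS7, MRPL15, MRPL4, MRPS24 and MRPL46 lie higher in both high-dose animals than in the untreated ones, MRPS35 lies lower, and TIMM10B and TOMM70 overlap; none passed the test.

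The import genes did not share 1 direction. All 7 members of the TIM22 branch and its chaperones were at or above 0 at the high dose, with a median of 0.07, and 3 of 4 of TIM23 and its motor, with a median of 0.12. Of the TOM genes, 5 of 7 were lower, with a median of -0.05. No test of the difference between these branches was made.

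TIMM10, which with TIMM9 forms a chaperone that carries hydrophobic proteins between the membranes, varied little. It read 8.90, 8.87 and 8.88 in untreated animals, 8.91, 8.94 and 8.92 at the low dose and 9.02 and 9.12 at the high dose. Its values rank by dose with no overlap, but the high-dose step measured only 0.19 ± 0.10 (limma adjusted p = 0.714). TIMM10 and MRPL18 were the 2 members (2.63%) in which every treated animal was above every untreated one, against 1.66% of all genes, and in MRPL18 the groups touched at 6.64 after rounding. On the second MRPL18 probe set these groups overlapped, and the low-dose change was -0.11 ± 0.21. TIMM9 was at 0.02 ± 0.23 and TIMM10B, a partner in the TIM22 complex, at 0.27 ± 0.14 (limma adjusted p = 0.694). TIMM10B read 7.78, 8.00 and 7.74 in untreated animals and 8.27 and 7.94 at the high dose, so its groups overlapped. The chaperone pair TIMM8A and TIMM13 was at 0.15 ± 0.21 and 0.07 ± 0.13, and TIMM22, the pore of its complex, at 0.00 ± 0.21.

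In the TIM23 branch, TIMM44, which holds the import motor at the channel, read 7.43, 7.48 and 7.29 in untreated animals, 7.87, 7.52 and 7.38 at the low dose and 7.95 and 7.36 at the high dose. The high-dose animals differed from each other by more than the untreated animals did, and the change was 0.25 ± 0.20 (limma adjusted p = 0.823). TIMM50, the receptor of TIM23, was at 0.12 ± 0.14, TIMM21 at 0.13 ± 0.27 and TIMM17B at -0.05 ± 0.14.

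Among the TOM receptors, TOMM20, which binds presequences, read 9.95, 9.91 and 9.85 in untreated animals, 9.48, 9.59 and 9.98 at the low dose and 10.01 and 9.98 at the high dose. High-dose and untreated values lay within 0.2 of each other, a change of 0.09 ± 0.16. TOMM70, the receptor for carrier proteins, spread widely, with 6.66, 6.02 and 6.46 in untreated animals, 5.43, 6.12 and 6.73 at the low dose and 6.60 and 6.78 at the high dose. Its change of 0.30 ± 0.34 (limma adjusted p = 0.892) is smaller than its error and was 0.12 without untreated replicate 2. TOMM22 was at -0.02 ± 0.14, and the small subunits TOMM7 and TOMM5 were at -0.05 ± 0.13 and -0.12 ± 0.16, TOMM5 ranging from -0.23 to -0.025 when 1 animal was left out. TOMM34, a cytosolic co-chaperone, was lower without overlap by a small step, -0.10 ± 0.12, from 5.72 to 5.86 in untreated animals to 5.70 and 5.64, or by -0.051 without untreated replicate 3.

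**Figure D4:**
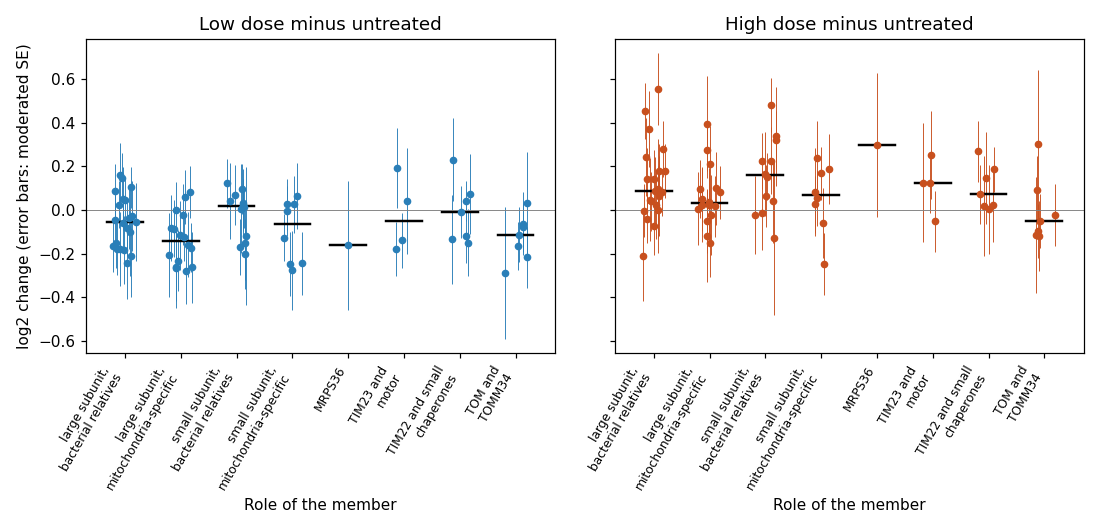
log2 change of each member at the low dose (left) and the high dose (right) against untreated animals, grouped by role; points are genes with their moderated standard error, and lines are the medians of each role. At the high dose every role except the TOM genes has a median above 0; at the low dose the small-subunit proteins with bacterial relatives alone have a median above 0, at 0.02. Both panels share the 3 untreated animals.

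High dose against low dose gave the most one-sided counts. Of 76 members, 63 were higher at the high dose, with a median of 0.15, against 54.1% of all genes and a median of 0.02. No member passed, with a smallest limma adjusted p of 0.266 for MRPL15, while 0.0250% of all probe sets passed. An unadjusted limma p under 0.05 was found in 12 members, all higher: 15.8% of the members, against 5.41% of all genes higher and 5.79% lower. Groups did not overlap in 23 members that were higher (30.3%, against 14.9% of all genes) and in 2 that were lower (2.63% against 12.5%). The difference was over 0.5 in size in 4 members (5.26% against 8.54%).

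The 12 were MRPL4, MRPL9, MRPL14, MRPL15, MRPL16, MRPL19, MRPL46, MRPL53, MRPS7, MRPS22, MRPS25 and TIMM10B, so 11 code for ribosomal proteins and 1 for an import protein. On the brightest probe sets MRPL46 and MRPL16 had the largest differences, 0.60 ± 0.22 and 0.56 ± 0.18 (limma adjusted p = 0.401 and 0.352). MRPL16 read 8.54, 8.76 and 9.07 at the low dose and 9.46 and 9.23 at the high dose, and its untreated values of 8.86 to 9.14 overlapped the low dose. MRPL53 differed by 0.45 ± 0.12 (limma adjusted p = 0.294), with 9.36, 9.53 and 9.49 at the low dose against 10.02 and 9.79.

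The counts depended on single animals. Without high-dose replicate 1 an unadjusted p under 0.05 was found in 2 members (2.78% of all genes higher), and 58 were higher. Without low-dose replicate 1 it was found in 6 higher (5.20%) and 1 lower (6.13%). In that fit 52 members were higher (52.7% of all genes), with a median of 0.10. Of all genes, 53.2% were higher without high-dose replicate 1. MRPS35 lay lower at the high dose than at the low dose without overlap, at -0.27 ± 0.14 (limma adjusted p = 0.578) or -0.18 without low-dose replicate 3, as did MRPL24, the dimmest MRPL gene.

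At the low dose the members leaned slightly lower than in untreated animals, with 49 of 76 lower and a median of -0.08; over all genes 48.3% were higher and the median was -0.01. No member passed in limma (adjusted p from 0.998; 0.00% of all probe sets), and none had an unadjusted p under 0.05, against 1.97% of all genes higher and 1.91% lower. Groups did not overlap in 2 members that were higher (4.39% of all genes) and 3 that were lower (4.14%), shares of 2.63% and 3.95%. No member had a change over 0.5 in size, against 2.56% of all genes. Without low-dose replicate 1 this lean was gone: 40 of 76 were higher with a median of 0.02, near the 52.0% of all genes higher. The lean grew without low-dose replicate 3, when 58 were lower with a median of -0.13, while 47.0% of all genes were higher. In that fit 10 members had an unadjusted limma p under 0.05 on the lower side, against 3.37% of all genes.

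The mitochondria-specific large-subunit proteins held the 3 members that were lower without overlap. MRPL48 read 8.59, 8.51 and 9.04 in untreated animals and 8.44, 8.40 and 8.47 at the low dose, -0.28 ± 0.15, and was at -0.12 without untreated replicate 3. MRPL39 read 10.96, 10.95 and 11.05 against 10.52, 10.84 and 10.79, -0.27 ± 0.15, and was at -0.17 without low-dose replicate 1. MRPL53 was the third, at -0.17 ± 0.11. In that role 13 of 16 were lower, with a median of -0.14. In the small subunit, MRPS22 (-0.25 ± 0.14) and MRPS28 (-0.24 ± 0.14) were lower with overlap, MRPS22 reading 8.81 and 8.97 in low-dose replicates 1 and 2 but 9.36 in replicate 3; it was at -0.13 without replicate 1 and -0.40 without replicate 3. TOMM70 had the most negative change of all members, but with a large error (-0.29 ± 0.30). On the higher side the largest changes were those of TIMM8A (0.23 ± 0.19), TIMM44 (0.19 ± 0.18), MRPL4 (0.16 ± 0.15), MRPL2 (0.15 ± 0.11) and MRPS7 (0.12 ± 0.11). MRPL18 was at 0.10 ± 0.10. TIMM8A was at 0.037 without low-dose replicate 3 and 0.098 without untreated replicate 2, and MRPL2 at 0.084 without untreated replicate 2. Averaging all probe sets of a gene turned MRPL2 and MRPL18 to just below 0. All had a limma adjusted p of 0.998.

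The group means of 47 of 76 members (61.8%) were lowest at the low dose, against 34.7% of all genes; without low-dose replicate 1 this held for 34 (44.7%, against 33.5%). In 16 members the means went up from untreated through low to high dose (21.1% against 19.4%) and in 2 they went down (2.63% against 17.0%). With both doses together against untreated, 41 of 76 were higher with a median of 0.01, close to the 51.2% and 0.004 of all genes. None passed in limma (smallest adjusted p 0.956; 0.00% of all probe sets), and 2, MRPS7 (0.30 ± 0.10) and MRPL4 (0.36 ± 0.13), had an unadjusted p under 0.05 (2.63%, against 2.60% of all genes higher and 2.82% lower). No member was lower without overlap (1.20% of all genes), and none changed by over 0.5 (3.34%).

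Several genes read differently on their other probe sets. MRPL33 was at 0.05 ± 0.19 at the high dose on its brightest probe set, with a mean of 10.19. On another, with a mean of 7.37, it read 8.97, 7.75 and 7.36 in untreated animals, 7.11, 5.94 and 7.08 at the low dose and 7.15 and 7.57 at the high dose. That probe set gave -0.67 ± 0.49 at the high dose and -1.32 ± 0.44 at the low dose (limma adjusted p = 0.998), a far larger spread than the brightest one. The dimmer MRPL15 probe set (mean 5.54) gave -0.08 ± 0.18 and did not show the difference of the brightest one. The second probe sets of MRPL3, with a mean of 8.20, and MRPL18, with a mean of 6.40, were at 0.48 and 0.47 at the high dose, above the 0.06 and 0.08 of the brightest ones. For TIMM50 and TIMM44 the next probe sets were at 0.30 and 0.15 against 0.12 and 0.25. For high against low dose, the second probe sets of MRPL3 and MRPL18 gave 0.87 ± 0.28 and 0.59 ± 0.24. The brightest ones gave 0.31 and -0.02 there. The dimmer MRPL15 probe set gave 0.04 ± 0.18 in that comparison, where the brightest gave 0.51. The second MRPL46 probe set, with a mean of 8.28, was nearly as bright as the first (8.34). It gave 0.25 ± 0.13 for high against low dose, where the first gave 0.60. At the low dose against untreated it was at 0.04 against -0.21, and its range was 0.51 against 1.07. At the high dose against untreated it was at 0.29 ± 0.13, also higher without overlap.

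Other genes of mitochondrial protein synthesis and upkeep were counted in 8 lists, and none of their genes passed in limma in any of the 4 comparisons. At the high dose 11 of 15 translation factors and helpers were higher, with a median of 0.09, and all 4 measured mitoribosome proteins that carry other names, with a median of 0.22. Of these 4, DAP3 read 9.02, 8.73 and 8.91 in untreated animals and 9.20 and 9.03 at the high dose, 0.23 ± 0.13, while PTCD3 and GADD45GIP1 (0.37 ± 0.21 and 0.22 ± 0.15) were high in high-dose replicate 1 only. Among tRNA synthetases and related enzymes 7 of 11 were higher, with a median of 0.10. The phenylalanine enzyme FARS2 read 8.43, 8.02 and 7.92 in untreated animals and 8.70 and 8.58 at the high dose, 0.52 ± 0.16 (limma adjusted p = 0.445), and GATB, of the enzyme that makes glutaminyl-tRNA, was at 0.46 ± 0.16 (limma adjusted p = 0.517).

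Of other import, folding and assembly genes 15 of 21 were higher, with a median of 0.22. CHCHD4 and GFER, which form the disulphide relay of the space between the membranes, went opposite ways, at 0.57 ± 0.18 on a dim probe set (mean 4.63) and -0.37 ± 0.13 (limma adjusted p = 0.449 and 0.522). HSPA9, the motor that pulls proteins into the matrix, read 12.55, 12.58 and 12.62 in untreated animals, 12.65, 12.69 and 12.72 at the low dose and 12.91 and 12.83 at the high dose. Its groups rank by dose without overlap, and the high-dose animals differed by 0.29 ± 0.10 (limma adjusted p = 0.526). Quality control proteases and prohibitins had 6 of 7 higher (median 0.10), mitochondrial DNA and transcription genes 5 of 8 (0.05), and genes of cristae and membrane dynamics 4 of 7 (0.18). TFAM, which packages and transcribes mitochondrial DNA, read 9.52, 9.52 and 9.45 in untreated animals and 9.68 and 9.40 at the high dose, 0.04 ± 0.12. Of the regulators of mitochondrial biogenesis 7 of 9 were higher, with a median of 0.19 and changes from -0.31 to 2.29. The change was over 0.5 in size in 3 of the 9 (33.3%, against 7.92% of all genes). An unadjusted limma p under 0.05 was found in 4, all higher (44.4%, against 4.61% of all genes higher). The smallest limma adjusted p in that list was 0.202. PPARGC1A, a coactivator of mitochondrial genes, read 9.38, 9.87 and 9.06 in untreated animals, 9.15, 9.14 and 9.54 at the low dose and 10.63 and 10.40 at the high dose, and differed by 1.08 ± 0.23 (limma adjusted p = 0.333).

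Markers of other cell types also differed at the high dose. Of 7 measured fibroblast markers 6 were lower, and the mean of the list was 8.05 to 8.47 at the high dose against 8.64 to 9.24 in untreated and 8.77 to 9.06 in low-dose animals. Of 7 macrophage markers 6 were lower, with list means of 6.20 to 6.27 against 6.67 to 7.13 and 6.69 to 7.27. Neither list overlapped between the high dose and the other groups. Cardiomyocyte markers had 9 of 10 higher than in untreated animals, but against the low dose 4 were higher and 6 lower. Their list means were 13.86 to 13.89 at the high dose, against 13.74 to 13.87 in untreated and 13.79 to 13.82 in low-dose animals. The part of these markers in the members' values was not tested. The other 5 lists overlapped between high-dose and untreated animals, apart from the 2 erythrocyte genes measured. Their means were 6.85 to 7.03 at the high dose, 7.12 to 7.22 in untreated and 6.99 to 7.22 in low-dose animals. These 2 genes went opposite ways at the high dose against untreated, at 0.12 and -0.60.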

How the data were processed

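Per the submitters' processing notes, the authors normalized the arrays by RMA in Partek 6.6, and the deposited values are log2 expression per probe set, 1 column per pig. No scanner files or genome build were used here, so the background correction was not repeated. Array medians were 5.34 to 5.39 and correlations between arrays 0.981 to 0.994, the median being 0.987 both within and between groups. The number of arrays limits precision.

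Probe sets were named from the platform annotation, and those with several symbols were left out (6 probe sets of MRPL22 and MRPL55). Limma 3.58.1 in R 4.3.3 was fitted to all 8 arrays with 1 mean per group, moderated variances and Benjamini-Hochberg adjustment over 23999 probe sets; a gene passed at an adjusted p under 0.05. The script was tested on simulated data. Errors are moderated standard errors. Lists were described by counts and medians beside 6765 genes, with no test. Replicate numbers follow the order of deposition, and each array's label names a different pig. The comparisons of each dose share the untreated animals.

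The members and lists were chosen with earlier results of these data known. Named members were those with the smallest p in each comparison (up to 6 each way at the high dose against untreated, up to 4 in the other comparisons of single doses), the brightest and dimmest of each family, the channel and receptor subunits, genes whose probe sets differed by over 0.5, and up to 3 genes of each other list. MRPL9, MRPL19, MRPL44, MRPL45, MRPL46, MRPL58, MRPS5, MRPS17, MRPS25, MRPS36, TIMM9, TIMM10, TIMM10B, TIMM13, TIMM17B, TIMM21, HSPA9, TFAM and the second probe sets of MRPL3, MRPL18, MRPL46, TIMM44 and TIMM50 fell outside this rule and were chosen after their values were seen. Alternatives were other filters, scalings, variance settings, probe set choices, array weights, a covariate for the neighbouring tags that span groups and leaving out arrays.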

Additional observations from a re-analysis of the deposited data

How the results depend on the processing

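No member passed limma's adjusted p under 0.05 in any comparison under any alternative run, and the smallest adjusted p over all of them was 0.139 for high dose against untreated (with a covariate for untreated replicate 2 and low-dose replicate 1, the pair of neighbouring tags that spans groups), 0.179 for high against low dose, 0.576 for low dose against untreated and 0.388 for both doses. Leaving out 1 animal at a time gave 46 to 60 members higher at the high dose than untreated (median 0.03 to 0.12), 18 to 40 at the low dose (-0.14 to 0.02), 52 to 69 for high against low dose (0.10 to 0.22) and 29 to 51 for both doses (-0.04 to 0.05). Of 646 alternative values of named members, 14 changed sign and 632 did not. Leaving out 1 animal gave, at the high dose against untreated, -0.27 to 0.047 for MRPS30, -0.14 to 0.15 for TIMM22, -0.044 to 0.55 for TIMM44, -0.036 to 0.28 for TIMM50 and -0.081 to 0.034 for TOMM22, and, for high against low dose, -0.22 to 0.11 for TIMM8A and -0.30 to 0.0034 for TOMM40L. TIMM22 was also at -0.021 with array weights, -0.13 with that covariate and -0.068 without those 2 animals, an alternative chosen after seeing the data. At the low dose averaging all probe sets of a gene gave -0.0038 for MRPL18 and -0.0026 for MRPL2. The cause of these changes was not tested. With 2 high-dose animals, each rests on few arrays. No paired analysis was possible because the labels hold no replicate numbers shared between groups.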
